A study of Homo sapiens with 8 samples.

Results

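The unfolded protein response and the ATF4 stress response were followed through 40 listed genes, taken as named, in MDA-MB-231 cells, a human triple-negative breast cancer line. The cells were stably transduced with lentivirus for a control short hairpin RNA (control shRNA) or for a hairpin against the integrin α3 subunit (alpha3-targeting shRNA), and were kept in serum-containing medium on standard plates. Each group had 2 biological replicates, and each of the 4 RNA samples was hybridised to a Human Exon 1.0 ST array (Affymetrix) and read out both by gene and by exon, which gives the 8 samples of the series. The labels do not say whether the replicates of a group came from separate transductions, so the p-values measure the spread between these cultures, and no group carried another α3 hairpin or a rescue. Of the 40 genes, 36 had a gene-level row (a transcript cluster) annotated to that gene alone, among 22011 transcript clusters in all. All 40 had at least 1 exon-level row (a probeset), with 597 probesets among 287329. HSP90B1, PDIA3, GDF15 and PSPH had probesets only, since no transcript cluster was annotated to any of them alone.

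When unfolded proteins collect in the endoplasmic reticulum (ER), the membrane sensors ATF6, IRE1 (gene ERN1) and PERK (gene EIF2AK3) signal to the nucleus. ATF6 and the XBP1 protein made after IRE1 activity raise chaperones, folding enzymes and the machinery that exports misfolded proteins for degradation. PERK, like other kinases that sense amino acid or haem shortage, phosphorylates the initiation factor eIF2α, which slows most translation but favours translation of ATF4. ATF4 then raises genes of amino acid import and synthesis, among them the serine and one-carbon pathway, and stress regulators such as DDIT3 (CHOP). The 40 genes were divided by role into 14 chaperones and folding factors, 4 genes of ER degradation, the 3 sensors, 14 genes of the ATF4 arm and 5 genes of serine and mitochondrial one-carbon metabolism.

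Promoters of the members were searched for elements of these branches, and stretches that hold them are shown because the members below are ordered by these branches. Promoter windows (RefSeq, build GRCh38.p14, 250 bases before to 50 bases after a start site) were held for 37 of the 40 genes (all but PDIA3, PSPH and SHMT2), as 52 windows. The ER stress response element (CCAAT, then 9 bases of any kind, then CCACG, on either strand) was found in 8 of 18 chaperone windows (6 of 13 genes, CALR, CANX, CRELD2, HSP90B1, HSPA5 and PDIA6) and in 0 of 24 ATF4-arm windows, against 0.0769% of all 35116 windows. The CANX windows counted among the 8 overlap and hold the same site. By gene, the element was found in 25 of all 27305 genes. The C/EBP-ATF response element, TGATGNAAN on either strand, was found in 4 of 24 ATF4-arm windows (ASNS, ATF3, CEBPG and CHAC1), in 1 of 4 degradation windows (HERPUD1) and in 0 of 18 chaperone windows, against 3.61% of all windows. The core TGACGTGG, on either strand, which can overlap the CCACG end of the ER stress response element, was found only in the HYOU1 window among the members, against 0.729% of all windows. Neither PHGDH, MTHFD2 nor PDIA4 had a match in its windows. A match is a description of these letters and not of a bound site. In the stretches below, written 5′ to 3′ on the strand of the gene, capitals mark the fixed letters of the ER stress response element or of the C/EBP-ATF response element (read as its reverse complement where it lies on the other strand).
HSPA5 (chr9:125241344-125241593, minus strand): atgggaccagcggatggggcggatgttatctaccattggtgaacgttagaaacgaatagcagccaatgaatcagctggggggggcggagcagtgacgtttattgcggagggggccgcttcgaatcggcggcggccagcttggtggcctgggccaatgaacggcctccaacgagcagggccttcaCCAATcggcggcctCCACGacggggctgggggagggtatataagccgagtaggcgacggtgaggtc
CRELD2 (chr22:49918524-49918583, plus strand): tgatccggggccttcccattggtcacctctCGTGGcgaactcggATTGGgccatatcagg
CALR (chr19:12938359-12938418, plus strand): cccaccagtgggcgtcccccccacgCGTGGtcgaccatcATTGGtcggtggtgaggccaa
PDIA6 (chr2:10812836-10812895, minus strand): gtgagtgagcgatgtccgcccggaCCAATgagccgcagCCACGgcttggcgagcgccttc
CHAC1 (chr15:40953236-40953295, plus strand): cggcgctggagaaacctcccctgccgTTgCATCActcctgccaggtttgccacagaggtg
ASNS (chr7:97872444-97872503, minus strand): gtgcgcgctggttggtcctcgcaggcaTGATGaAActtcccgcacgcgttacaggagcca
CEBPG (chr19:33374043-33374102, plus strand): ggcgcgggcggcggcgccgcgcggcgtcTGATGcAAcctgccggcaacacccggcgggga
HERPUD1 (chr16:56931937-56931996, plus strand): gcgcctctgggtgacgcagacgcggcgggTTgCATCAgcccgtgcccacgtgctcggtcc

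All values are PLIER intensities, a linear scale on which levels of different genes are not strictly comparable. Sums over marker genes below are weighted to the brightest features and serve only to compare arrays. The arrays had gene-level medians of 177 and 186 in control cells against 168 and 171 in knockdown cells. The hairpin target ITGA3 measured 3480 and 3529 in control cells against 618.9 and 643.6 in knockdown cells (5.44-fold lower, adjusted p = 8.04e-05). Of 6 genes chosen as high in this line (VIM, CD44, AXL, CAV1, FOSL1, MSN) all were far above the filter, with summed intensities of 22049 and 22332 in control cells against 18764 and 18385 in knockdown cells, and AXL fell. The luminal markers ESR1 and PGR lay below the filter on dim features, described in the next paragraph. So did CDH1, at 25.4 and 28.8 in control cells against 177 and 168 in knockdown cells, although its knockdown values were higher. The luminal genes ERBB2, EPCAM and GATA3 were above the filter. ERBB2 measured 460.2 and 479.7 in control cells against 332.3 and 345.7 in knockdown cells. EPCAM measured 98.97 and 113.8 against 109.8 and 137.8, and GATA3 144.3 and 146.9 against 164.2 and 181.6. EPCAM and GATA3 did not pass the test described below. The 6 luminal genes summed to 825 and 868 against 872 and 928. The rise of CDH1 was larger than that of this sum, and ERBB2 among the 6 fell. The 4 leukocyte genes with a row summed to 2242 and 2140 against 1877 and 1870, most of it CD68, which fell, with PTPRC at 25.1 to 27.4. CD14 (205 to 250.5) and CD3E (93.46 to 144.1) were above the filter and did not pass. The 4 endothelial genes summed to 288 to 338 and the 3 neural genes to 161 to 258. The part of these shifts in the results below was not tested, and in bulk RNA a change in the share of cells and a change in RNA per cell cannot be told apart.

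The comparison asked which of these stress genes change when the α3 hairpin replaces the control one. Knockdown and control were compared on log2(intensity + 16) by limma across all 13207 transcript clusters that remained after the dimmest 40% were left out, with adjusted p under 0.05 as the threshold. Of the 36 members with a row, 34 were tested, and ATF3 and STC2 fell below the filter. At the gene level 4 members rose (CHAC1, MTHFD2, DNAJB11 and ASNS), 7 fell (PHGDH, PDIA4, ATF5, CRELD2, HERPUD1, ATF6 and SHMT2) and 23 did not pass. Without knockdown replicate 1 the counts were 3 higher and 3 lower, and without knockdown replicate 2 they were 2 and 3. The 11 calls are 32.4% of the tested members, where 21.3% of all tested features passed. The higher calls are 11.8% of members against 5.99% of all features, and the lower calls 20.6% against 15.3%. Risen and fallen members occurred side by side in the chaperones, in the ATF4 arm and in serine and one-carbon metabolism. After quantile normalization 5 members were higher and 7 lower, and after centring each array on its median 5 were higher and 5 lower. Over all features these settings gave 1354 higher and 1679 lower, and 1586 higher and 1457 lower, against 791 and 2016 with the authors' scaling.

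**Figure D1:**
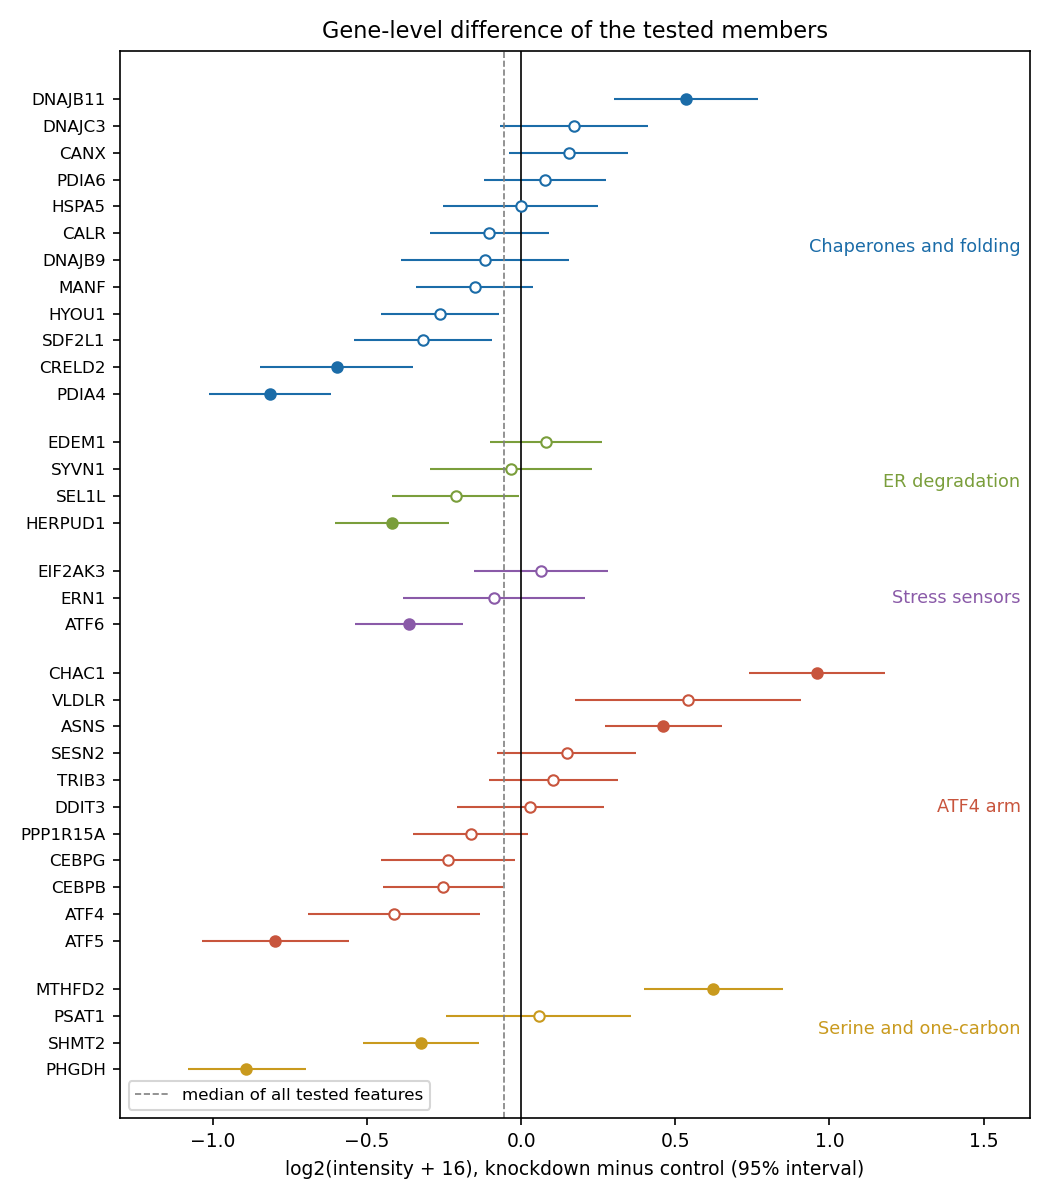
Difference of each of the 34 tested members, knockdown minus control, on the log2(intensity + 16) scale with its 95% interval from limma (2 arrays per group), grouped by role; filled points passed an adjusted p of 0.05 and the dashed line is the median of all tested features (-0.055). The called members reach from PHGDH at -0.89 to CHAC1 at 0.96, and the chaperones, the ATF4 arm and the serine genes each have filled points on both sides of 0.

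Among the chaperones and folding factors, 1 of 12 tested members rose and 2 fell. PDIA4, a protein disulfide isomerase of the ER (transcript cluster 3078435), measured 936.6 and 1003 in control cells against 554.2 and 535.3 in knockdown cells. It fell 1.76-fold (log2 difference -0.81 ± 0.081 (SE), adjusted p = 0.00301). CRELD2, a secreted ER folding factor whose promoter stretch is shown above, measured 508.8 and 591.1 in control cells against 351 and 363 in knockdown cells, and fell 1.51-fold (-0.60 ± 0.10 (SE), adjusted p = 0.0122). For both genes each knockdown array lay below each control array, as for 39.6% of all tested features. DNAJB11, a J-domain co-chaperone of HSPA5, moved the other way, from 964.7 and 973.8 to 1304 and 1527. It rose 1.45-fold (0.53 ± 0.096 (SE), adjusted p = 0.0141), and its knockdown arrays lay apart from each other but above both controls. Without knockdown replicate 2 the DNAJB11 call was lost (adjusted p = 0.0873), and the CRELD2 call was lost without knockdown replicate 1 (0.0663) or 2 (0.0614).

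HSPA5, the main ER chaperone (BiP) and a usual readout of ER stress, measured 2373 and 2857 in control cells against 2607 and 2598 in knockdown cells. Both knockdown values lay between the controls, and its log2 difference was -0.001 with a 95% interval from -0.25 to 0.25 (adjusted p = 0.997). The lectin chaperone CANX measured 5054 and 5217 against 5524 and 5914 (log2 difference 0.15, adjusted p = 0.224). PDIA6, another disulfide isomerase, measured 5351 and 5189 against 5341 and 5791, so its groups overlapped (0.08, adjusted p = 0.556). SDF2L1 and HYOU1, both partners of HSPA5, came nearest the threshold without passing. SDF2L1 measured 333.8 and 324.5 against 254.5 and 267.4 (-0.32, adjusted p = 0.0575), and HYOU1 2169 and 2365 against 1893 and 1874 (-0.26, adjusted p = 0.0612). Neither pair of groups overlapped, which also held for 61.8% of all tested features. CALR, DNAJB9, DNAJC3 and MANF had log2 differences from -0.15 (MANF) to 0.17 (DNAJC3) and did not pass. Of the 5 chaperones tested here whose promoter held the ER stress response element (CALR, CANX, CRELD2, HSPA5 and PDIA6), CRELD2 alone passed. Over all tested features 21.3% passed. The median log2 difference of the 12 chaperones was -0.11, where that of all tested features was -0.055.

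In ER degradation 1 of 4 members fell and 0 rose (limma; 0 rose and 2 were lower at an unadjusted p under 0.05). Of all tested features 15.3% fell and 5.99% rose at the adjusted threshold, so 1 call among 4 genes is near that share. HERPUD1, a membrane organiser of the degradation complex, measured 1667 and 1637 in control cells against 1274 and 1189 in knockdown cells. It fell 1.34-fold (log2 difference -0.42 ± 0.077 (SE), adjusted p = 0.0148), although not without knockdown replicate 1 (adjusted p = 0.0545) or 2 (0.113). SEL1L, the adaptor of the ubiquitin ligase in that complex, measured 1117 and 1199 against 1041 and 954.5 (-0.21, adjusted p = 0.132). EDEM1, which extracts misfolded glycoproteins, measured 845.3 and 856.6 against 911.7 and 890.2 (0.08, adjusted p = 0.497). The groups of SEL1L and of EDEM1 did not overlap, as in 61.8% of all tested features, but differed in direction. SYVN1, the ligase itself, had a log2 difference of -0.03 (adjusted p = 0.862) with overlapping groups.

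Of the 3 sensors ATF6 fell and 0 rose (limma, also 0 at an unadjusted p under 0.05), where 15.3% of all tested features fell and 5.99% rose. ATF6 measured 1347 and 1317 in control cells against 1041 and 1024 in knockdown cells. It fell 1.29-fold (log2 difference -0.36 ± 0.073 (SE), adjusted p = 0.0191), with each group close together and well apart from the other. The call was lost without knockdown replicate 1 (adjusted p = 0.10) or 2 (0.134) and after median centring (0.0682). ERN1, which encodes IRE1, measured 140.2 and 163.1 against 142.3 and 140.4 (-0.09, 95% interval -0.38 to 0.21, adjusted p = 0.668). EIF2AK3, which encodes PERK, measured 320.1 and 326.5 against 331.2 and 346.9 (0.07, 95% interval -0.15 to 0.28, adjusted p = 0.666). XBP1, the target of IRE1 (not among the 40), measured 1263 and 1328 against 1036 and 1148 (-0.24, adjusted p = 0.0927). A gene-level value does not tell its spliced from its unspliced RNA.

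The ATF4 arm held both the largest rise and one of the larger falls among the members, with 2 of 11 tested genes higher and 1 lower. CHAC1 degrades glutathione and is a target of ATF4 (transcript cluster 3590275). It measured 416.7 and 426.5 in control cells against 788.6 and 884 in knockdown cells. It rose 1.94-fold (log2 difference 0.96 ± 0.091 (SE), adjusted p = 0.0026). ASNS, asparagine synthetase, measured 738.4 and 698.4 against 979 and 1011, and rose 1.38-fold (0.46 ± 0.078 (SE), adjusted p = 0.0119). Both promoters hold the C/EBP-ATF element shown above. Of the 5 members with that element these 2 rose, HERPUD1 fell, CEBPG did not pass and ATF3 was not tested at the gene level. Over all tested features 5.99% rose and 15.3% fell. ATF5, a transcription factor related to ATF4, went the opposite way to CHAC1 and ASNS, from 279.6 and 280.5 to 155.5 and 153.2. It fell 1.74-fold (-0.80 ± 0.099 (SE), adjusted p = 0.00496), and the arrays of each group were nearly equal. The ASNS call was lost without knockdown replicate 1 (adjusted p = 0.064) or 2 (0.0935).

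ATF4 itself measured 391.4 and 401.1 in control cells against 266.7 and 323.5 in knockdown cells. Both knockdown arrays lay below both controls, as for 39.6% of all tested features, but they differed from each other. The log2 difference of -0.41 (95% interval -0.69 to -0.13) did not pass (adjusted p = 0.0508). It passed with the dimmest 60% left out (adjusted p = 0.0445), while without knockdown replicate 1 the difference was -0.28 (0.29) and on exon-level medians only -0.07 (0.777). RNA level does not report the translation of ATF4. DDIT3, which encodes the pro-apoptotic factor CHOP, measured 426.2 and 475.1 against 479.6 and 440.6, so its groups overlapped (0.03, 95% interval -0.21 to 0.27, adjusted p = 0.865). VLDLR, a lipoprotein receptor raised by PERK signalling, measured 82.7 and 98.9 against 125.5 and 153.6. It was close to the dim limit and did not pass (0.54, adjusted p = 0.051), although it was higher after quantile normalization (0.031), median centring (0.0239) and without the intensity trend (0.0395).

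PPP1R15A, the eIF2α phosphatase subunit GADD34, measured 879.4 and 926.9 in control cells against 794.8 and 813 in knockdown cells (log2 difference -0.16, adjusted p = 0.186). CEBPB, a bZIP partner of ATF4, measured 856.7 and 924.2 against 749.4 and 737.6 (-0.25, adjusted p = 0.0721). CEBPG, another such partner with the C/EBP-ATF element in its promoter, had a log2 difference of -0.24 (adjusted p = 0.114). For these 3 genes both knockdown arrays lay below both controls, as they did for 39.6% of all tested features. The pseudokinase gene TRIB3 (0.10, adjusted p = 0.445) and the nutrient-stress gene SESN2 (0.15, adjusted p = 0.309) did not pass either. The untested ATF3, a stress-induced repressor, was dim and uneven at 76.6 and 57.1 in control cells against 78.7 and 109.9 in knockdown cells. STC2, a secreted glycoprotein, was also dim, at 61.1 and 66.7 against 82.7 and 80.8. The median of the 11 tested genes was 0.03, against -0.055 over all features.

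**Figure D2:**
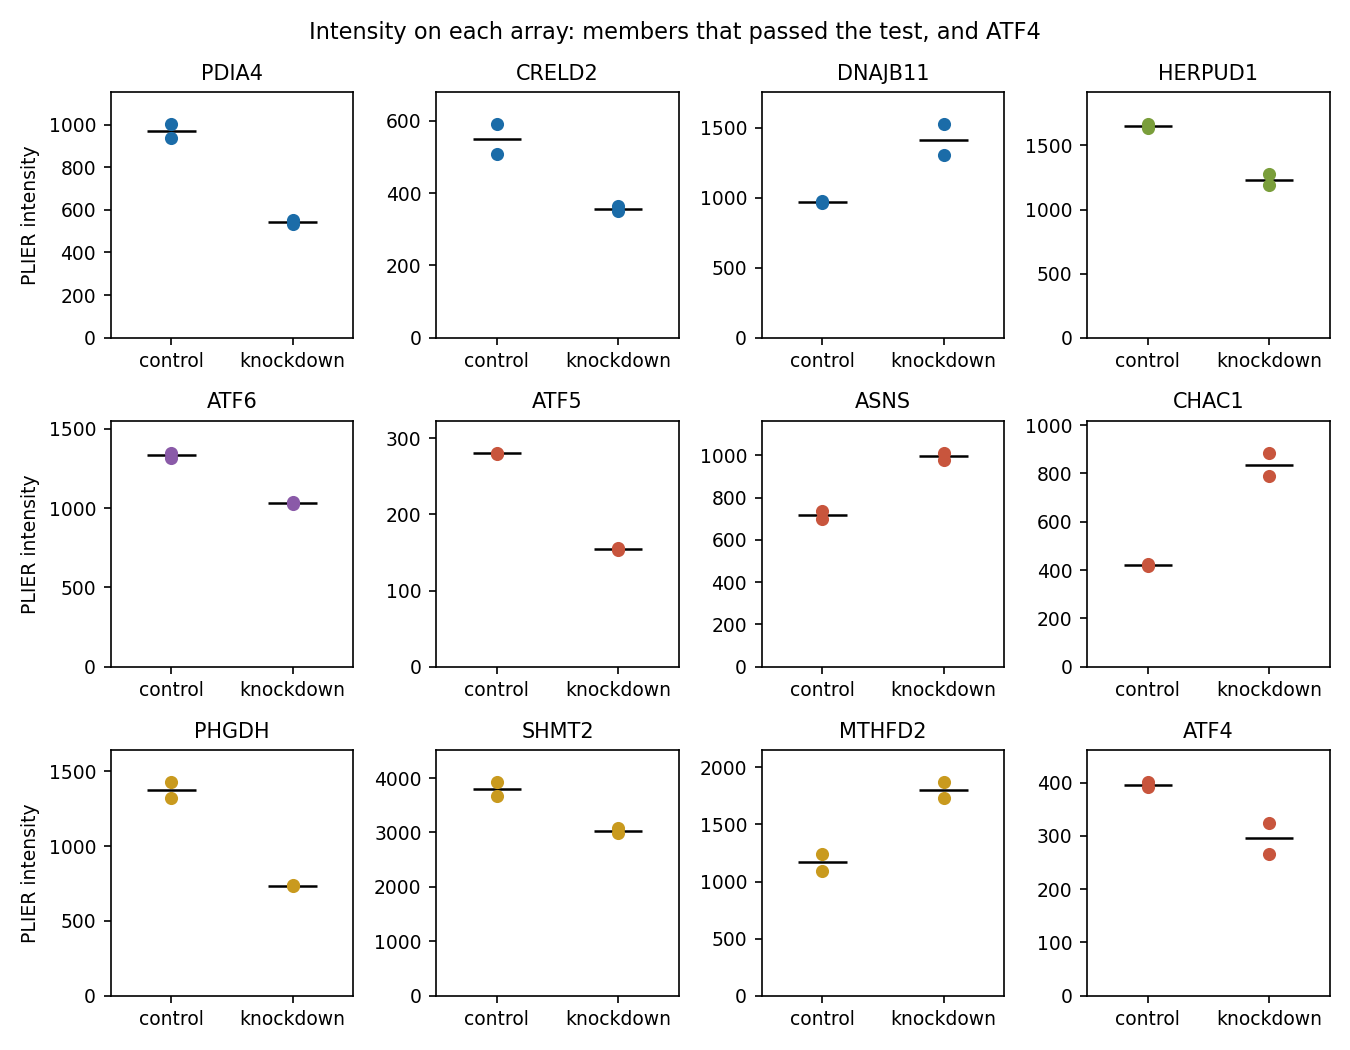
PLIER intensity (linear, from 0) on each of the 2 control and 2 knockdown arrays for the 11 members that passed the test and for ATF4, which did not (adjusted p = 0.0508); points are arrays and short horizontal lines are group means. In each of the 11 the groups do not overlap, which also holds for 61.8% of all tested features. The arrays of ATF4 in the knockdown (266.7 and 323.5) lie further apart than those of ATF5 (155.5 and 153.2).

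Serine and mitochondrial one-carbon metabolism did not move one way. PHGDH, which commits a glycolytic intermediate to serine synthesis (transcript cluster 2354634), measured 1429 and 1323 in control cells against 737.1 and 731.5 in knockdown cells. It fell 1.85-fold (log2 difference -0.89 ± 0.079 (SE), adjusted p = 0.00218), the largest fall among the tested members. PSAT1, the aminotransferase of the next step, measured 1561 and 1965 against 1733 and 1917, so both knockdown values lay between the controls (0.06, 95% interval -0.24 to 0.36, adjusted p = 0.793).

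Downstream of serine, SHMT2, which splits serine to glycine in mitochondria, measured 3669 and 3927 in control cells against 3079 and 2982 in knockdown cells. It fell 1.25-fold (log2 difference -0.32 ± 0.078 (SE), adjusted p = 0.0329). MTHFD2, which oxidises the one-carbon unit that SHMT2 releases, measured 1092 and 1242 against 1872 and 1736, and rose 1.54-fold (0.62 ± 0.093 (SE), adjusted p = 0.00824). MTHFD2 thus lay above the controls on both knockdown arrays while PHGDH and SHMT2 lay below them. The SHMT2 call was the least stable of the 11 and was lost in 7 of 13 alternative settings, among them leaving out control replicate 2 (adjusted p = 0.0879), knockdown replicate 1 (0.114) or 2 (0.176), median centring (0.0949), no intensity trend (0.0542) and no filter (0.06). The median of the 4 tested genes was -0.13.

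Set side by side, the chaperones had 1 risen and 2 fallen of 12, the ATF4 arm 2 risen and 1 fallen of 11, and the serine genes 1 risen and 2 fallen of 4. Thus 3 of 12, 3 of 11 and 3 of 4 passed in either direction, where 21.3% of all features did, and the last share rests on 4 genes. The mean log2 level of the 12 chaperones relative to the controls' mean was -0.15 and -0.09 in the knockdown arrays, and that of the 4 serine genes -0.13 and -0.14. Over the 11 ATF4-arm genes it was 0.01 and 0.06, within or just above the controls at -0.03 and 0.03. Over all tested features it was -0.09 and -0.06. Control and knockdown arrays did not overlap in 10 of 12 chaperones and in 10 of 11 ATF4-arm genes, and in 28 of the 34 tested members (82.4%), where 61.8% of all tested features had this property. Of the 34 tested members, 11 lay above and 17 below the controls, against 22.3% and 39.6% of all 13207 tested features. Among the 8166 features whose groups did not overlap, 2941 lay above and 5225 below, so more lay below there as well. No test was made of one role against another, since the roles were chosen with results of these data known.

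**Figure D3:**
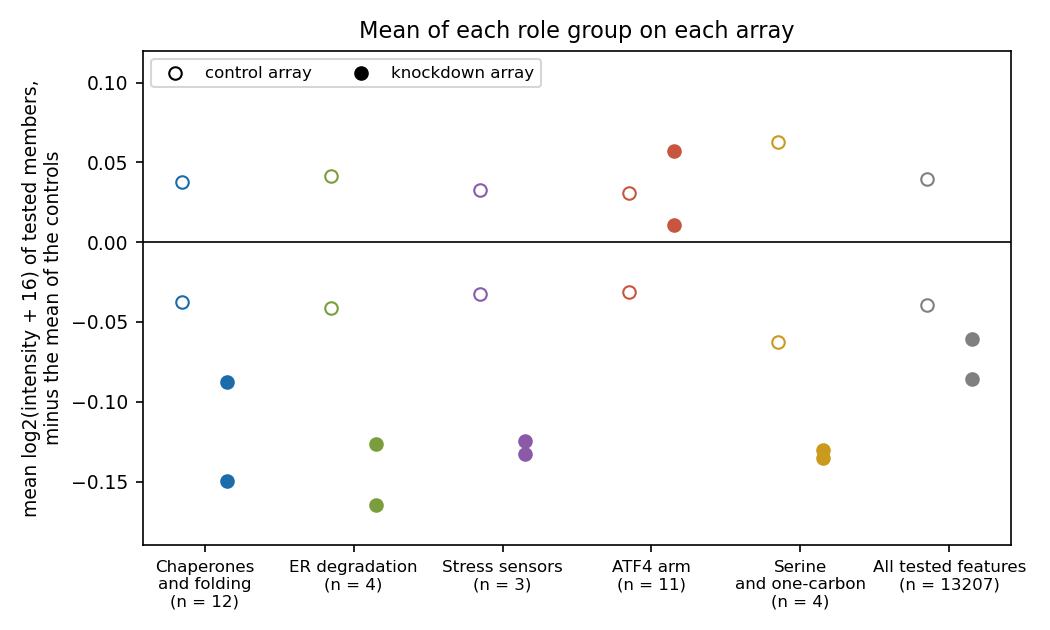
Mean log2(intensity + 16) over the tested members of each role on each of the 4 arrays, minus the mean of the 2 controls; open points are control arrays, filled points knockdown arrays, and n is the number of genes averaged. The knockdown points of the chaperones (-0.15 and -0.09) lie below their controls, those of the ATF4 arm (0.01 and 0.06) overlap their controls, and those of all tested features lie at -0.09 and -0.06.

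The exon-level rows, measured on the same 4 arrays and so no further replicates, show how evenly a member moved along its exons. Of the 597 member probesets 511 passed the filter, and 14 were higher and 17 lower in knockdown. With 1 array left out there were 2 higher and 8 lower (without control replicate 1), 6 and 13 (control replicate 2), 9 and 17 (knockdown replicate 1) or 3 and 13 (knockdown replicate 2). Over all 172397 tested probesets 1.33% were higher and 3.25% lower, 4.58% in all. PHGDH was lower in all 17 of its probesets, and 12 of them passed, the median log2 difference being -0.85. Its probeset 2354698 measured 2578 and 2402 in control cells against 1221 and 1246 in knockdown cells (adjusted p = 0.00426), the smallest p among the member probesets. MTHFD2 was higher in 8 of 9 tested probesets and 7 passed (median 0.71). CHAC1 was higher in all 4, of which 3 passed (median 0.92), and ASNS in all 18, of which 3 passed (median 0.46).

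Most other called genes also moved in 1 direction along the gene, with few probesets passing on their own. DNAJB11 was higher in all 10 tested probesets, and CRELD2 was lower in 10 of 11, with 0 passing for either gene in limma. HERPUD1 was lower in 13 of 14 and ATF6 in all 18, with 1 passing each. ATF5 was lower in all 6, with 1 passing, and SHMT2 in all 17, with 1 passing. PDIA4 had only 2 probesets annotated to it alone, both lower, and 1 passed. Over the 186 tested chaperone probesets 0 were higher and 1 lower (limma; 15 higher and 24 lower at an unadjusted p under 0.05). The 123 of the ATF4 arm had 7 higher, from CHAC1 (3), ASNS (3) and STC2 (1), and 1 lower, and the 68 of the serine genes had 7 higher, all of MTHFD2, and 13 lower (12 of PHGDH, 1 of SHMT2), where 1.33% and 3.25% of all probesets passed. These counts depended on the variance model and the filter: without the intensity trend 0 member probesets were higher and 1 lower, and without the filter 0 were higher and 0 lower (limma).

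Among genes that did not pass at the gene level, ATF4 was lower in all 11 tested probesets and VLDLR higher in 13 of 14, with 0 passing in limma. HYOU1 was lower in 34 of 35, SEL1L in 28 of 29 and CEBPB in all 8, and CANX was higher in 25 of 27. A shared direction along the gene was thus not particular to called members, although SYVN1 was higher in 8 and lower in 10 of 18. HSPA5 was higher in 9 of 16 and lower in 7, between -0.23 and 0.36. STC2, whose transcript cluster was dim, had a bright probeset, 2887499, at 528.4 and 483.8 in control cells against 1073 and 942.4 in knockdown cells (log2 difference 0.97, adjusted p = 0.0146). Its other 2 tested probesets were lower and did not pass. Only 3 of its 8 probesets were tested. The median log2 level over all 8, itself below the filter, was 5.68 and 5.58 in control cells against 6.29 and 6.36 in knockdown cells. ERN1 varied most among the sensors, from -0.94 in a probeset whose controls were 296.6 and 569.7 to 0.86 in one at 175.8 and 167.4 against 318.8 and 329.4, neither of which passed.

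For exon usage, a probeset was set against the average of the remaining tested probesets of its gene. Of 507 member probesets 0 passed (limma, 22 at an unadjusted p under 0.05), where 0.0142% of 155391 passed overall. The STC2 probeset 2887499 had the smallest p of the members (usage log2 difference 1.19, adjusted p = 0.27), followed by the ERN1 probeset 3766705 (0.96, adjusted p = 0.34).

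**Figure D4:**
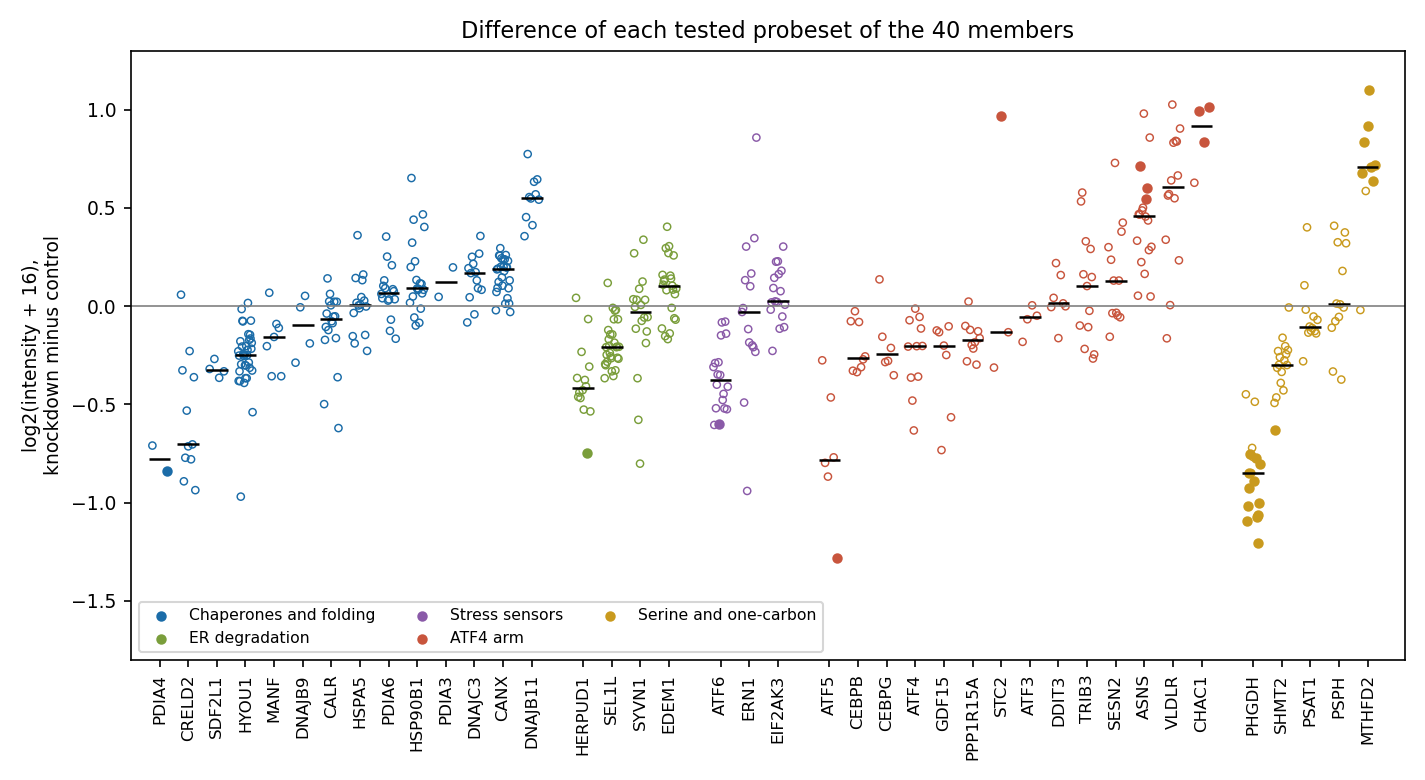
Log2(intensity + 16) difference, knockdown minus control, of each of the 511 tested probesets of the 40 members; each point is a probeset, filled where it passed an adjusted p of 0.05, and horizontal lines are medians over the tested probesets of a gene. All 17 PHGDH points lie below 0 (median -0.85), 8 of 9 MTHFD2 points lie above (median 0.71), and 1 STC2 point at 0.97 stands apart from its other 2. Of the 8 STC2 probesets only 3 were tested and are shown.

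For the 4 members without a transcript cluster of their own, the median over all probesets of a gene was compared across arrays. GDF15, a secreted stress cytokine, had median log2 levels of 7.95 and 7.72 in control cells against 7.35 and 7.16 in knockdown cells. It fell (log2 difference -0.58 ± 0.17 (SE), adjusted p = 0.0456), while its 7 tested probesets were all lower, with a smaller median of -0.20 and 0 passing in limma. GDF15 no longer passed when control replicate 1 was left out (adjusted p = 0.155), or knockdown replicate 1 (0.0637) or 2 (0.253), nor without the filter (0.0806), after quantile normalization (0.0928) or after median centring (0.0789). HSP90B1, the ER paralogue of HSP90, had a difference of 0.14 (adjusted p = 0.433), and its near-identical pseudogenes make that value uncertain. PDIA3, another disulfide isomerase (0.12, adjusted p = 0.467), and PSPH, which completes serine synthesis (0.07, adjusted p = 0.745), did not pass. By these gene medians 3 of 38 tested members were higher and 7 lower, where 4.78% and 10.7% of 10145 genes were. For 32 of the 34 members tested at both levels the call was the same, and ASNS (0.19, adjusted p = 0.431) and SHMT2 (-0.24, adjusted p = 0.141) did not pass on the medians, which take in all probesets of a gene (22 and 17).

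Beyond the 40 members, 85 further genes of the same pathways were read, of which 71 were tested, 8 rose and 6 fell. These 14 calls are 19.7% of the tested genes, close to the 21.3% over all features (11.3% against 5.99% higher, 8.45% against 15.3% lower). In ER folding and transport 2 of 20 rose and 3 fell. CREB3L2, a membrane-bound transcription factor related to ATF6, fell 1.67-fold, from 374.3 and 381.5 to 208.8 and 231.9 (adjusted p = 0.00622). The oxidase gene ERO1A fell from 2571 and 2702 to 2168 and 2046 (adjusted p = 0.0326). PDIA5, a disulfide isomerase, rose from 310.3 and 339.7 to 418.2 and 473.3 (adjusted p = 0.0323), and SIL1, the nucleotide exchange factor of HSPA5, from 230 and 220.4 to 293.8 and 354.9 (adjusted p = 0.0336). In ER degradation 1 of 12 fell and 0 rose (limma; 1 higher and 3 lower at an unadjusted p under 0.05), the lectin OS9, from 1228 and 1313 to 1018 and 1030 (adjusted p = 0.0371).

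Among 24 other genes of the integrated stress response 4 rose and 2 fell (16.7% and 8.33%, where 5.99% and 15.3% of all tested features did). SLC7A11, the cystine importer, rose 1.91-fold, from 663 and 718.8 to 1373 and 1289 (log2 difference 0.93 ± 0.084 (SE), adjusted p = 0.00227), next to 1.94-fold for CHAC1. JDP2, a bZIP repressor, rose from 190.5 and 177 to 279 and 296.2 (adjusted p = 0.0119). DDIT4, an inhibitor of mTORC1 signalling, fell from 1252 and 1380 to 903.3 and 975.8 (adjusted p = 0.015), and the glycine transporter gene SLC6A9 from 267.8 and 242.6 to 181 and 182.8 (adjusted p = 0.0294). Of 12 aminoacyl-tRNA synthetases 2 rose and 0 fell (limma; 1 was lower at an unadjusted p under 0.05). They were CARS1, from 674.3 and 845.2 to 1093 and 1257 (adjusted p = 0.0213), and EPRS1, from 1293 and 1364 to 1591 and 1737 (adjusted p = 0.0391). Of 3 other one-carbon genes tested 0 passed (limma; 1 higher and 0 lower at an unadjusted p under 0.05). Of the genes named in these 2 paragraphs, the calls of CREB3L2 and SLC7A11 held in every alternative setting, and each of the others lost its call without knockdown replicate 2 (adjusted p = 0.0543 for DDIT4 to 0.254 for EPRS1).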

How the data were processed

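RNA of the 4 cultures was ribosomal-RNA-reduced, biotin-labelled and hybridised, per the labels' protocols. Deposited were linear PLIER intensities from Affymetrix Expression Console (core gene and core exon sets), per the labels; the design text also names an Exon Array Computational Tool. Their versions, the genome build and any scaling of arrays to each other: not given in the sources used here. Of the gene-level rows 14432 had 1 symbol in the platform annotation, 2408 several and 5171 none; at the exon level 261273, 9155 and 16901. Symbols were updated through RefSeq (GRCh38.p14, used for names and promoters only).

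Values were taken as log2(intensity + 16), which understates changes of dim genes, and the lower 40% by mean over the 4 arrays were left out (below an intensity of about 107, or 96.2 for probesets). Groups came from the sample titles. The test of knockdown against control used limma 3.58.1 under R 4.3.3 (lmFit and eBayes with intensity trend, 2 residual degrees of freedom, two-sided, Benjamini-Hochberg over all tested rows). The gene-level fit, the probeset fit and the exon usage fit were tested on simulated data. The exon-level gene medians and the motif search were not. The simulations drew independent noise for each feature, and the share of changes they recovered is not given here. Absence of a call for exon usage therefore does not show absence of a change. Plots used matplotlib 3.10.9. Members and lists were chosen with earlier results of these data known. Named in full are called members, ATF4, DDIT3, HSPA5, PHGDH, the sensors, the 2 brightest uncalled members of each role, and up to 4 called genes with the smallest p per further list, with others added after their values were seen (SDF2L1, HYOU1, VLDLR, XBP1, ATF3, STC2). The number of arrays limits precision. Alternatives covered offset, filter, trend, scaling, replicate block, each array left out and exon-level medians. Those for the further genes, and for members with probesets only, were chosen after seeing the data.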

Additional observations from a re-analysis of the deposited data

How the results depend on the processing

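Of the 11 member calls, PDIA4, ATF5, CHAC1, PHGDH and MTHFD2 passed in every alternative that tested them, and 0 called members changed direction. With 1 array left out, members higher ranged from 2 to 4 and members lower from 3 to 7. Chaperones higher ranged from 0 to 1 and lower from 1 to 2, with a median of -0.144 to -0.083. The ATF4 arm had 1 to 2 higher and a median of -0.046 to 0.105, the serine genes 1 to 2 lower and a median of -0.24 to -0.027. Member probesets higher ranged from 2 to 9 and lower from 8 to 17. Quantile normalization and median centring moved the median of the chaperones to -0.052 and -0.013, that of the ATF4 arm to 0.118 and 0.128, and centring that of the serine genes to -0.035. Quantile normalization gave 22 member probesets higher. Without the filter the ATF4-arm median was 0.104, and 1 serine gene was lower, as without the trend, after centring and on exon-level medians, where 1 ATF4-arm gene was higher. Without the filter 0 member probesets were higher and 0 lower, and without the trend 0 and 1. Same-numbered arrays of the groups deviated together (r = 0.29 over 13207 features), but 2 pairs cannot show that the numbers pair the samples. With the replicate block 5 members were higher and 10 lower (4 chaperones and 2 ATF4-arm genes lower, ATF4 at an adjusted p of 0.0158), with 45 probesets higher and 65 lower. Over all 13 alternatives, 6 of the 23 uncalled members changed sign and 4 passed in some setting. Where a group was down to 1 array, the fit took its spread from the other group. Without knockdown replicate 1 or 2 the log2 difference of CRELD2 was -0.575 or -0.621, against -0.598 with all arrays. That of ATF6 was -0.374 or -0.351 (against -0.363), of HERPUD1 -0.468 or -0.37 (-0.419) and of SHMT2 -0.347 or -0.3 (-0.324). For ASNS it was 0.484 or 0.439 (0.461), and for DNAJB11 0.647 or 0.422 (0.535). Without scanner files, signal over background is unknown. The median over tested probesets only, and the filter at 60%, gave no value for GDF15, which was then below the filter.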
